A study of Mus musculus with 10 samples.

Results

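The 10 genes described here encode the nitric oxide and cyclic GMP pathway of the vessel wall: the nitric oxide synthases Nos1, Nos2 and Nos3, the enzymes Gch1 and Ddah1 that favour their activity, the guanylate cyclase subunits Gucy1a3 and Gucy1b3, the kinase Prkg1 and the phosphodiesterases Pde5a and Pde3a. They were chosen by gene name, of 35527 gene names on the array, and all 17 probes that carry those names were kept, of 55681 probes in all. Gene expression was measured in the infrarenal aorta of male C57BL/6J mice, 10 weeks old and on a normal diet. In the PPE group (5 mice), the isolated segment was filled for 5 min at 100 mmHg with saline that held type I porcine pancreatic elastase (PPE) at 1.5 U/mL, which breaks down the elastic layers of the wall and is used to induce an abdominal aortic aneurysm. In the sham group (5 mice), the same segment was filled with saline under the same pressure. The whole segment was taken 7 days later, the RNA of 1 mouse was put on 1 array without pooling, and neither group carried a transgene or a deletion by its label.

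Nitric oxide is made from arginine by the synthases, with tetrahydrobiopterin as a cofactor. It diffuses to neighbouring smooth muscle, binds the haem of soluble guanylate cyclase, a dimer of an alpha and a beta subunit, and starts the production of cyclic GMP. Cyclic GMP activates the kinase encoded by Prkg1, which lowers the calcium sensitivity of the contractile apparatus and so relaxes the vessel, and phosphodiesterases end the signal. In a healthy artery the endothelial enzyme Nos3 is the main source of nitric oxide, while Nos2 is the form that macrophages and other cells make in inflammation.

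What the array read of each gene was a stretch of 60 bases. The first 30 bases, 5′ to 3′, are shown for the probes on which the comparisons turn, including the pairs of probes for 1 gene that gave different answers, with the position of the whole probe on the mouse genome build mm9 as the files state it. Whether a probe lies in coding sequence or a UTR was not analysed here.
Nos2 A_55_P2158741, chr11:78773567-78773626, plus strand: caccatgccgccgctctaatacttagctgc
Nos3 A_55_P2034027, chr5:23890038-23890097, plus strand: tgtagactccctttaactctctctctggag
Gch1 A_55_P2106175, chr14:47775348-47775407, minus strand: cgtacattccagtttcagttggtacacttg
Gch1 A_52_P298002, chr14:47773797-47773856, minus strand: ctgaacgaccctgttgggtcattctctaga
Ddah1 A_51_P110471, chr3:145516152-145516211, plus strand: attctttgcatttaaagagtttctgcagca
Ddah1 A_51_P307168, chr3:145556803-145556862, plus strand: gatgagctagaaggattgcatagttagcac
Gucy1a3 A_55_P1992049, chr3:81896409-81896468, minus strand: ggaactttatctaattcaagtcaaaagaag
Gucy1b3 A_52_P179068, chr3:81836142-81836201, minus strand: tcattttaattctagcatagaatggactga
Prkg1 A_51_P440210, chr19:30643563-30643622, minus strand: catgatgcctttgatcgatgctgctccagt
Pde5a A_55_P2042778, chr3:122558949-122559008, plus strand: gccctccaccaagagaaatgttttacttga
Pde5a A_51_P162017, chr3:122478836-122478895, plus strand: atgtacgttttcatttgctgcaataataaa

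All values are log2 ratios of aortic RNA (red dye) to a common mouse reference RNA (green dye) on the same array, so a value of 0 means equal signal and a rise of 1 a doubling. A difference is PPE minus sham on that scale. Probes entered the test when the scanner software rated their aortic signal as well above background on 5 or more of the 10 arrays, and they passed at an adjusted p under 0.01 (limma, two-sided, Benjamini-Hochberg over all 30836 tested probes). By that rating 37.6% (sham 5) to 65.8% (PPE 1) of spots were detected in the red channel, and no spot was saturated. Levels of different probes are not compared, since probes differ in brightness.

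In PPE aortas the inducible synthase Nos2 rose, together with Ddah1 and 1 of the 2 probes for Gch1. Prkg1 and 1 of the 2 probes for Pde5a fell, and the call of Prkg1 was close to the threshold. Of the 17 member probes 16 were tested. Of these, 4 were higher and 2 were lower in PPE, against 12.8% higher and 9.15% lower among all tested probes. For 4 of the 16 the sham and PPE values did not overlap, and this held for 23.9% of all tested probes. The median difference over the 16 was -0.54, against 0.01 for all tested probes. In bulk tissue, fewer cells of a type and less RNA per cell cannot be told apart. When each array was centred on its median in place of the intensity-dependent loess curve, 0 of the 16 passed in either direction (limma). At the same threshold only 409 higher and 8 lower calls were left among all probes. Of the 16, 4 were higher and 1 lower at an unadjusted p under 0.05 (limma). The share of all probes at that unadjusted level was not computed, here or for the gene lists below. That scaling moved the median of all tested probes up by 0.34. Nos2 then differed by 2.37 (adjusted p = 0.0845) and the Ddah1 probes by 1.81 and 2.18 (adjusted p = 0.0238 and 0.0371, limma). These calls were thus lost although the differences grew, while Pde5a (A_55_P2042778) and Prkg1 shrank to -0.89 and -0.37. Relative to the shift Nos2 differed by 2.02, Pde5a (A_55_P2042778) by -1.24 and Prkg1 by -0.72, values that were not tested.

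**Figure D1:**
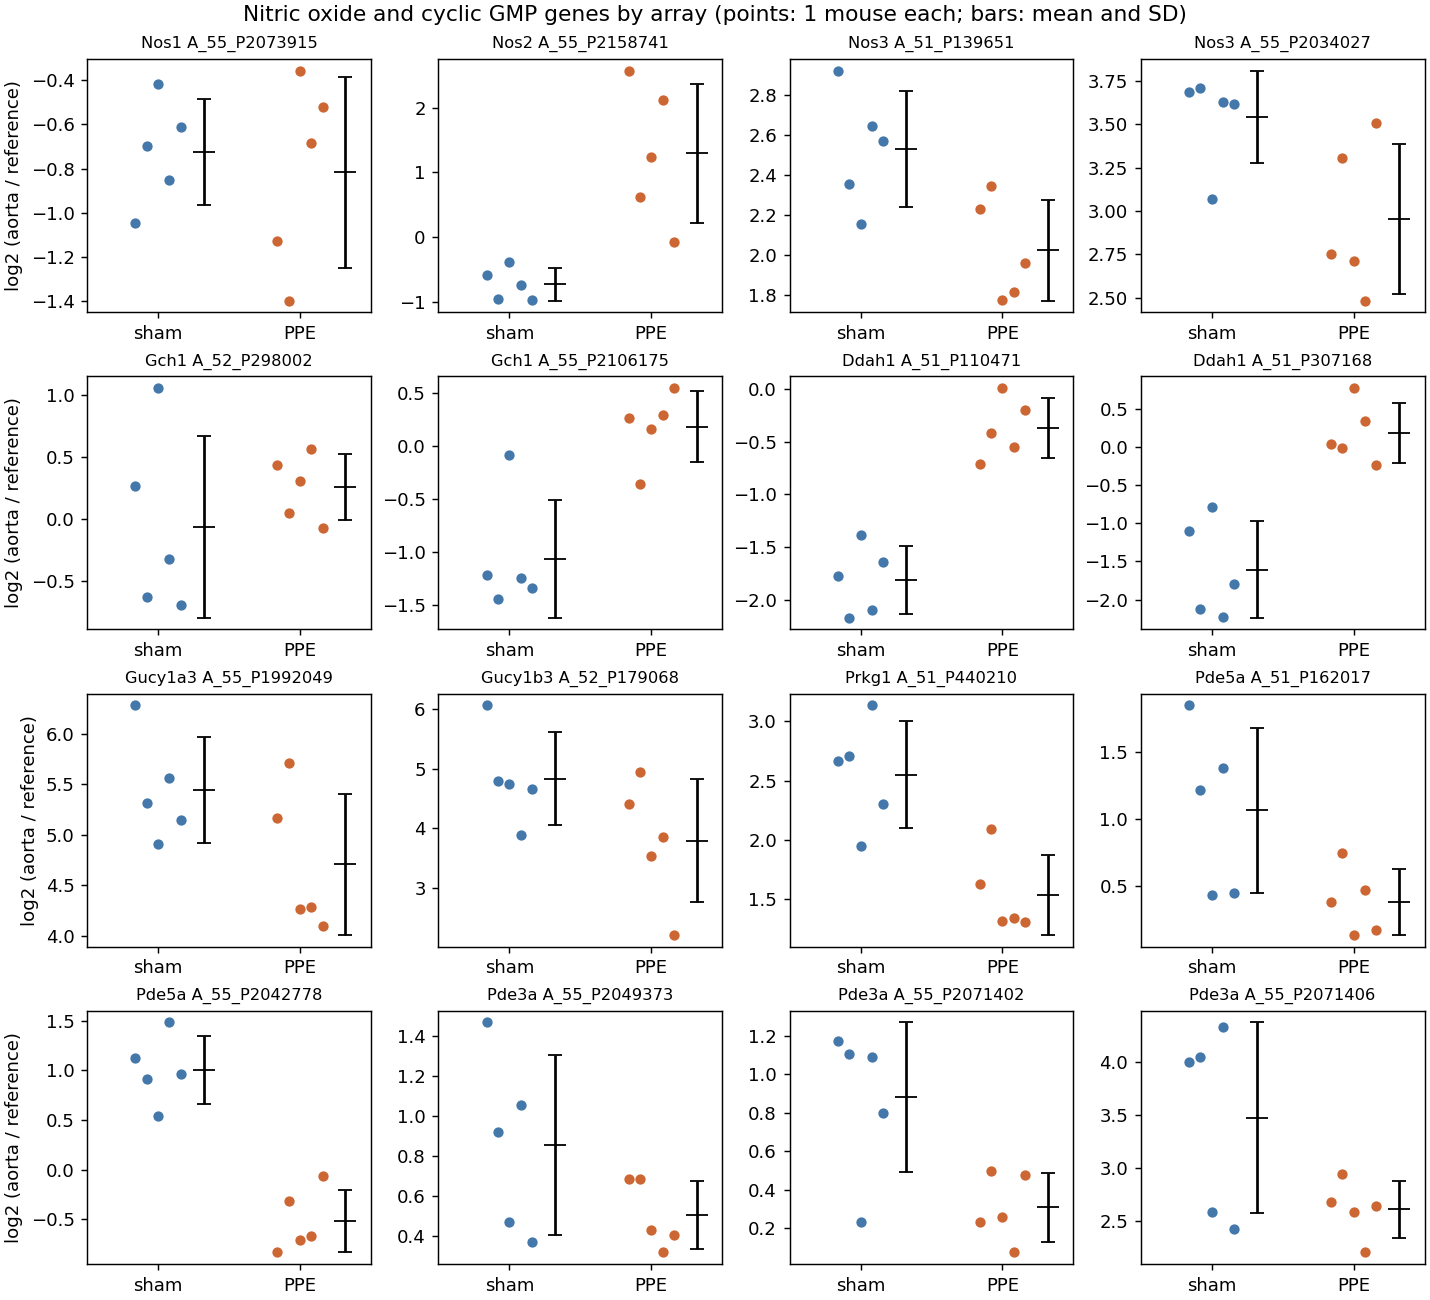
Log2 ratio of aorta to reference (vertical axis, own range in each panel) for the 16 tested probes, with 1 point per mouse and the mean ± SD beside the points of each group. The sham and PPE points of Nos2, both Ddah1 probes and Pde5a A_55_P2042778 do not overlap, and those of the other probes do.

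**Figure D2:**
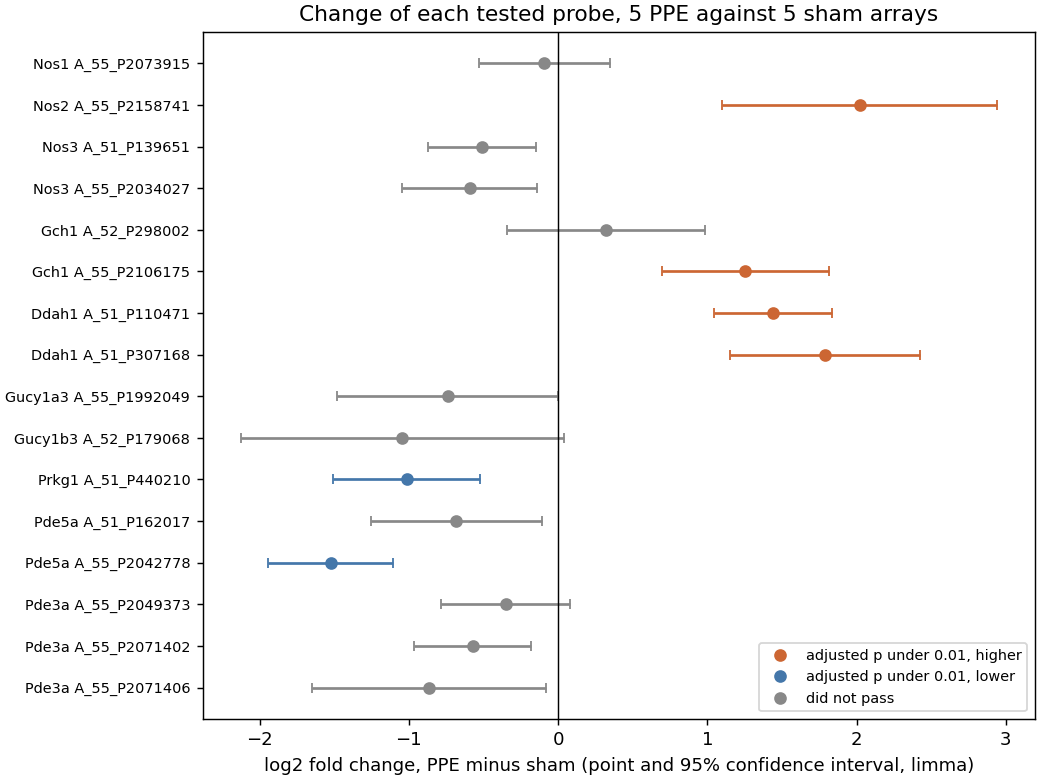
Difference PPE minus sham in log2 ratio (horizontal axis) with its 95% confidence interval for each tested probe, coloured by the test. The intervals of Gucy1a3, Gucy1b3, Nos1, 1 Gch1 probe and 1 Pde3a probe reach 0.

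Nos2, the inducible synthase, was the most changed of the synthases. In the sham arrays 1 to 5 its log2 ratios were -0.58, -0.95, -0.38, -0.74 and -0.97, and in the PPE arrays 1 to 5 they were 2.57, 0.63, 1.24, 2.11 and -0.06. All 5 PPE arrays lay above all sham arrays, but they spread over more than 2 log2 units, with PPE 5 lowest and PPE 1 highest. The mean rose from -0.72 ± 0.25 (SD, n = 5) to 1.30 ± 1.07 (SD, n = 5), a difference of 2.02 ± 0.42 (SE), or 4.06-fold, with an adjusted p of 0.00301 (limma). The difference was 2.18 within slide 1, which held sham 1, PPE 1 and PPE 2, and 2.34 within slide 2, which held sham 2 and 3 and PPE 3 and 4. Beside this, the mean log2 ratio of 9 neutrophil markers was highest in PPE 4 (4.18) and PPE 1 (3.40) and lowest in PPE 5 (2.65). In sham arrays it ran from 0.46 to 0.55, and some of these markers were not well above background on all arrays. The mean of 10 macrophage markers in PPE 1 to 5 was 3.98, 3.29, 2.89, 3.32 and 2.94, with PPE 3 lowest, and 0.91 to 1.31 in sham arrays. The part of those cells in the Nos2 signal was not tested.

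Nos3, the endothelial synthase, was read by 2 probes, neither of which passed. The brighter one (A_55_P2034027) stood at 3.68, 3.71, 3.07, 3.63 and 3.62 in sham 1 to 5 and at 2.75, 3.31, 2.71, 2.48 and 3.51 in PPE 1 to 5. Sham 3 lay apart from the other sham arrays and within the range of PPE. The difference was -0.59 ± 0.21 (SE), with an adjusted p of 0.0464, and the probe with 10 spots (A_51_P139651) gave -0.51 ± 0.17 (SE), with an adjusted p of 0.0341. That probe passed with slide as a block (-0.53, adjusted p = 0.00701) and on the authors' processed ratios (-0.75, adjusted p = 0.00281), as well as with scan day as a block, with slide as a random block, in the red channel alone and by SAM. With median centring both Nos3 probes turned to the other side of 0 (0.078 and 0.060), which is -0.27 and -0.29 relative to the shift of all probes. Of 12 endothelial markers none passed the test (limma, 2 higher and 0 lower at an unadjusted p under 0.05). Their median difference was 0.15, and their mean level ran from 2.93 to 4.03 in sham and from 3.05 to 4.25 in PPE arrays.

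Nos1, the neuronal synthase, was dim. Its tested probe (A_55_P2073915) was well above background on 2 sham and 4 PPE arrays and read -1.05, -0.70, -0.42, -0.85 and -0.61 in sham 1 to 5. In PPE 1 to 5 it read -1.13, -1.40, -0.36, -0.68 and -0.52, so the groups overlapped throughout. The difference was -0.09, with a 95% confidence interval from -0.53 to 0.35 and an adjusted p of 0.772. Its sign depended on the processing, being 0.054 with median centring, 0.17 in the red channel alone, 0.028 with scan day as a block and 0.30 on the authors' processed ratios. The other Nos1 probe (A_55_P2133795) was not well above background in the red channel on any array and was not tested.

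The changes of the inducible and the endothelial synthase were compared within arrays. The log2 ratio of Nos2 less that of Nos3 moved from -4.27 ± 0.48 (SD, n = 5) in sham to -1.65 ± 1.46 (SD, n = 5) in PPE, a difference of 2.61 (exact two-sided permutation test over all relabellings of the arrays, p = 0.0159, adjusted p = 0.0477 over the 3 pairs compared). For these pairs the threshold was an adjusted p under 0.05, looser than the 0.01 used for the probes. The smallest p that this design allows is 0.00794. Within slides 1 and 2 the difference was 2.83 and 3.13. Without sham 1, 2, 4 or 5 the adjusted p rose to between 0.0596 and 0.0951, with differences from 2.51 to 2.61.

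Ddah1, which breaks down asymmetric dimethylarginine, a natural inhibitor of the synthases, rose on both of its probes. The probe with 10 spots (A_51_P110471) read -1.77, -2.17, -1.38, -2.10 and -1.64 in sham 1 to 5 and -0.71, -0.42, 0.01, -0.55 and -0.20 in PPE 1 to 5. The groups stood well apart, with the highest sham array below the lowest PPE array. The difference was 1.44 ± 0.18 (SE), or 2.71-fold, with an adjusted p of 9.85e-05. The second probe (A_51_P307168) lies further along the same transcript and read -1.10, -2.12, -0.79, -2.23 and -1.79 in sham and 0.04, -0.02, 0.78, 0.34 and -0.23 in PPE. It gave 1.79 ± 0.29 (SE), or 3.46-fold, with an adjusted p of 0.000597. Within slides 1 and 2 the probes gave 1.21 and 1.51, and 1.11 and 2.02. Both were well above background on 9 arrays, and on the authors' processed ratios the differences were larger, at 2.28 and 2.75. Ddah2, the related enzyme, did not pass (-0.08 ± 0.13, SE, adjusted p = 0.684), a value that changed sign within slide 2 (0.053) and with median centring (0.65).

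Gch1 makes the first and rate-limiting step towards tetrahydrobiopterin, and its 2 probes, on the same transcript, disagreed. The brighter probe (A_55_P2106175) read -1.22, -1.45, -0.09, -1.25 and -1.34 in sham 1 to 5 and 0.26, -0.36, 0.16, 0.30 and 0.55 in PPE 1 to 5. Sham 3 alone overlapped the PPE arrays. This probe rose by 1.25 ± 0.26 (SE), or 2.38-fold, with an adjusted p of 0.00267, and without sham 3 the difference was 1.50 (adjusted p = 9.18e-05). The dimmer probe (A_52_P298002) ran from -0.69 to 1.06 in sham, again with sham 3 highest, and from -0.07 to 0.56 in PPE. It gave 0.32, with a 95% confidence interval from -0.34 to 0.98 and an adjusted p of 0.465, and ran from 0.12 to 0.63 across the other fits. With slide as a fixed block, which leaves the estimate to the 7 arrays of slides 1 and 2, the brighter probe no longer passed (1.07, adjusted p = 0.0327). Gchfr, the regulatory protein that inhibits the enzyme, gave -0.03 ± 0.19 (SE, adjusted p = 0.914) and took either sign across settings.

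Gucy1a3 and Gucy1b3 encode the alpha and beta subunits of the main soluble guanylate cyclase of vascular smooth muscle. On the ratio scale neither passed. Gucy1a3 read 6.29, 5.32, 4.91, 5.56 and 5.15 in sham 1 to 5 and 5.17, 5.71, 4.27, 4.28 and 4.10 in PPE 1 to 5. Gucy1b3 read 6.07, 4.80, 4.76, 3.88 and 4.67 in sham and 4.41, 4.94, 3.54, 3.86 and 2.21 in PPE. For both subunits PPE 2 was the highest PPE array and sham 1 the highest of all. The difference was -0.74 for Gucy1a3, with a 95% confidence interval from -1.48 to 0.00 and an adjusted p of 0.12, and -1.04 for Gucy1b3, from -2.13 to 0.04 with an adjusted p of 0.132.

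For this pair of subunits the answer depended on the processing. With slide as a fixed block Gucy1a3 differed by -0.84 (adjusted p = 0.00607) and Gucy1b3 by -1.21 (adjusted p = 0.00124), and with scan day as a block by -0.97 (adjusted p = 0.000493) and -1.34 (adjusted p = 0.00552). The fixed slide block takes no information from sham 4, sham 5 and PPE 5, each alone on its slide, and scan day 2 held slide 1 only. With slide as a random block, which uses all arrays, neither passed (adjusted p = 0.0133 and 0.0201). The differences were smaller on the authors' processed ratios (-0.36 and -0.18, adjusted p = 0.492 and 0.803) and with a background offset of 10 (-0.42 and -0.63), and without PPE 5 that of Gucy1b3 was -0.65. Within slides 1 and 2 the differences were -0.85 and -0.84 for Gucy1a3, and -1.39 and -1.08 for Gucy1b3. With median centring Gucy1a3 changed sign (0.017), which is -0.33 relative to the shift of all probes. The difference in change between the subunits was 0.31 and did not pass (exact two-sided permutation test over all relabellings of the arrays, p = 0.444), and it was -0.18 on the authors' processed ratios.

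Prkg1, the cyclic GMP-dependent kinase, fell. It read 2.66, 2.71, 1.95, 3.13 and 2.30 in sham 1 to 5 and 1.63, 2.10, 1.31, 1.34 and 1.31 in PPE 1 to 5. The ranges overlapped at 1 array each, since sham 3 lay below PPE 2. The difference was -1.01 ± 0.23 (SE), 2.02-fold lower, with an adjusted p of 0.00458, and within slides 1 and 2 it was -0.80 and -0.998. The call was close to the threshold: it was lost with slide as a fixed block (-0.92, adjusted p = 0.0107) and without sham 1, sham 2, sham 4, PPE 3 or PPE 4, where the adjusted p lay between 0.0111 and 0.0142.

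Pde5a, the cyclic GMP-specific phosphodiesterase of smooth muscle and the target of sildenafil, showed the largest fall of the members on the ratio scale. The brighter probe (A_55_P2042778) read 1.12, 0.91, 0.54, 1.48 and 0.96 in sham 1 to 5 and -0.83, -0.32, -0.71, -0.67 and -0.07 in PPE 1 to 5. Every PPE array lay below every sham array. The difference was -1.52 ± 0.19 (SE), 2.88-fold lower, with an adjusted p of 9.84e-05, and -1.70 and -1.42 within slides 1 and 2. It passed without any 1 of the 10 arrays, with differences from -1.64 to -1.41. The second probe (A_51_P162017), which was placed on another transcript and had a reference signal well above background on 0 arrays, gave -0.68 ± 0.26 (SE) and did not pass (adjusted p = 0.0657), nor did it on the authors' processed ratios (-1.98, adjusted p = 0.058).

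Pde3a, a phosphodiesterase of heart and smooth muscle that cyclic GMP inhibits, was lower in PPE on all 3 probes and passed on none (limma, 2 of the 3 at an unadjusted p under 0.05). The brightest probe (A_55_P2071406) read 3.995, 4.04, 2.59, 4.33 and 2.43 in sham 1 to 5 and 2.68, 2.95, 2.58, 2.21 and 2.65 in PPE 1 to 5. Sham 3 and sham 5 lay among the PPE arrays and the other sham arrays well above them. Its difference was -0.86 ± 0.36 (SE, adjusted p = 0.0874), and the other probes gave -0.57 ± 0.18 (SE, adjusted p = 0.0285) and -0.35 ± 0.20 (SE, adjusted p = 0.202). On the authors' processed ratios the brightest probe had the smallest difference, at -0.16 (adjusted p = 0.836), against -1.28 and -1.18 for the others, and none passed. Without sham 1 the difference of A_55_P2049373 was -0.20. The probe A_55_P2071402 passed without sham 3 (-0.73, adjusted p = 0.00163). The reference signal of the brightest probe was well above background on 1 array, so its ratio rests on a dim denominator. That of A_55_P2049373 was so on 0 arrays, and its aortic signal on 4 sham and 2 PPE arrays. The difference in change between Pde5a and Pde3a was -0.66 and did not pass (exact two-sided permutation test over all relabellings of the arrays, p = 0.0714, adjusted p = 0.107). This difference was -0.52 and -0.49 within slides 1 and 2, and it passed on the authors' processed ratios (-1.68, adjusted p = 0.0475) and with a smaller background offset (-1.12, adjusted p = 0.0357).

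Because the green channel held the same reference RNA on every array, both channels were also read on their own. In the red channel alone 9 of the 16 member probes were lower and 4 were higher in PPE, against 11.9% lower and 11.4% higher among all tested probes. The 9 were both Nos3 probes, Gucy1a3, Gucy1b3, Prkg1, both Pde5a probes and 2 of the 3 Pde3a probes. Gucy1a3 fell from 12.3 ± 0.50 to 10.6 ± 0.47 (log2 red signal, SD, n = 5 each), by 1.72 with an adjusted p of 0.000237. Gucy1b3 fell from 11.4 ± 0.81 to 9.41 ± 0.48, by 1.97 with an adjusted p of 0.000767, and Prkg1 from 9.78 ± 0.49 to 7.99 ± 0.23, by 1.78 with an adjusted p of 3.34e-05.

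The reference channel moved with these 3 genes. The log2 green signal of Gucy1a3 was 7.94 ± 0.55 on sham arrays and 7.01 ± 0.31 on PPE arrays (SD, n = 5 each). That of Gucy1b3 was 7.46 ± 0.40 and 6.61 ± 0.18, and that of Prkg1 was 8.04 ± 0.34 and 7.21 ± 0.18. The green differences were -0.93, -0.86 and -0.83, with adjusted p of 0.129, 0.0286 and 0.0189 (limma). They lay between -0.29 and 0.15 for the other 13 member probes. None of the 16 passed in the green channel, where 0.165% of all tested probes were higher and 0.383% lower. At an unadjusted p under 0.05 (limma, green channel) there were 4 of the 16, and 1727 of all 30836 tested probes. The ratio subtracts green from red, so for Gucy1a3, Gucy1b3 and Prkg1 it changed less than the red signal did on its own. For Nos2, Ddah1 and Pde5a the green signal differed by at most 0.22 in size. What lowered the reference signal of the 3 probes was not tested, nor whether it also lowered their red signal.

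**Figure D3:**
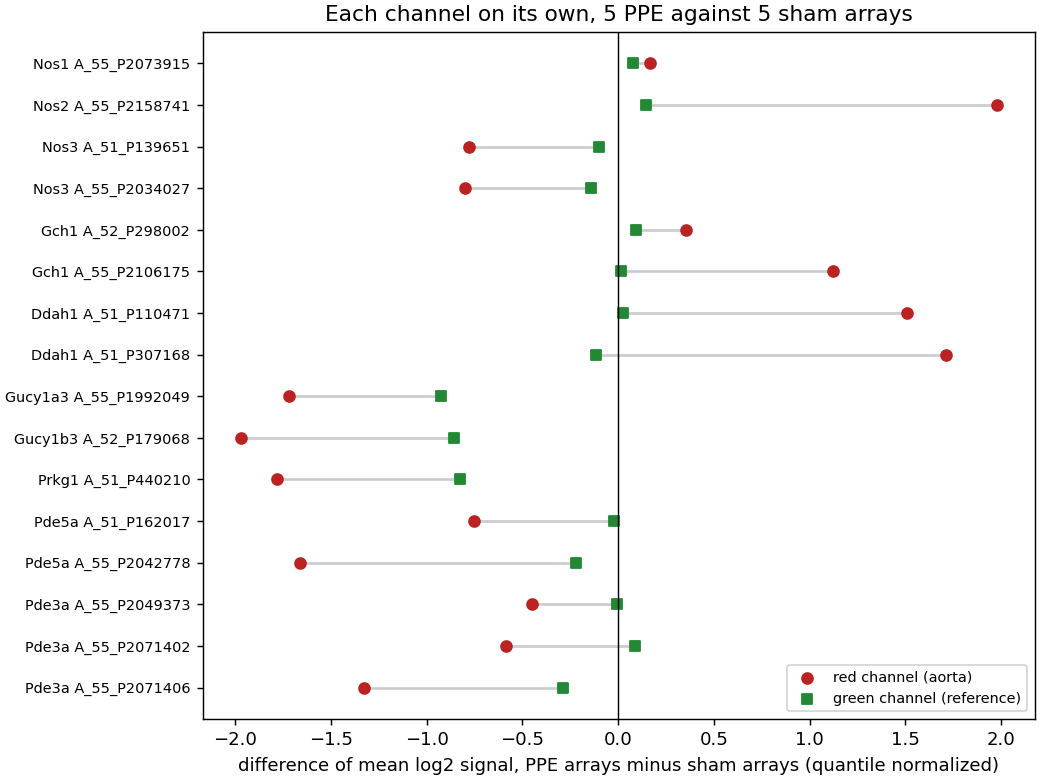
Difference in mean log2 signal between PPE and sham arrays for each tested probe, in the red channel with the aortic RNA (circles) and in the green channel with the common reference RNA (squares). The green squares of Gucy1a3, Gucy1b3 and Prkg1 lie near -0.9 and the other squares between -0.29 and 0.15.

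Around the members, 78 further genes of the pathway were followed, each by its brightest tested probe. In the test 68 of them could be compared: PPE was higher for 5 (7.35%) and lower for 14 (20.6%), against 13.7% and 9.86% of all 22520 gene names tested. Their median difference was -0.14, against 0.02 for all gene names. The 5 higher genes include Arg2, which was well above background on PPE arrays only and so entered the test through that group. The 10 genes not tested were Gucy2e, Gucy2g, Pde1c, Pde6a, Pde6b, Pde6c, Pde11a, Cnga1, Cnga3 and Cnga4.

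Of 9 genes of arginine supply and competing use 3 were higher, and the median was 0.14. Arg1 and Arg2, the arginases that take arginine from the synthases, rose. Arg1 ran from -0.20 to 0.64 in sham and from 1.77 to 5.73 in PPE, a difference of 3.50 ± 0.58 (SE, adjusted p = 0.000711). It was well above background on 8 arrays. Arg2 was well above background on the 5 PPE arrays and on 0 sham arrays. It entered the test through the group where it was high, so its adjusted p of 0.00611 (limma) lends no support. Only a bound can be given: it was at least 4.12-fold higher in PPE. This bound sets the mean PPE signal against the higher, on each sham array, of the probe's own signal and the lowest signal among detected probes, per channel and open to dye bias. Arg2 did not pass without sham 1, 2, 3, 4 or 5 or PPE 4, where the adjusted p reached 0.0168. Nor did it with slide as a fixed block (adjusted p = 0.0117) or with no filter (adjusted p = 0.0142). Ass1, which rebuilds arginine from citrulline, ran from -1.63 to -1.07 in sham and from -0.47 to 0.40 in PPE, a difference of 1.45 ± 0.16 (SE, adjusted p = 4.82e-05).

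Of 14 cofactor enzymes and synthase regulators, 3 were lower and the median was -0.25. Cav1, the caveolar scaffold that binds Nos3 and holds it inactive, fell by 0.90 on the log2 scale (SE 0.17, adjusted p = 0.00147). Dynll1, a dynein light chain that also binds the neuronal synthase, fell by 0.54 (adjusted p = 0.00585), and Spr, which makes the last step to tetrahydrobiopterin, fell by 0.40 (adjusted p = 0.0065). The calls of Dynll1 and Spr were lost when single arrays were left out. Dynll1 did not pass without sham 1, 2, 3 or 4 or PPE 2, 3, 4 or 5 (adjusted p up to 0.0185), nor Spr without sham 1, 2 or 3 or PPE 1, 2, 3 or 4 (up to 0.0217).

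Among the other guanylate cyclases 1 of 5 was lower, with a median of -0.51. This was Npr2, the receptor of C-type natriuretic peptide, which fell by 0.93 (SE 0.18, adjusted p = 0.00164). The remaining soluble subunits did not pass: Gucy1a2 gave -0.19 ± 0.30 (SE, adjusted p = 0.673) and Gucy1b2 -0.51 ± 0.16 (SE, adjusted p = 0.0289).

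The other phosphodiesterases went both ways, with 1 of 17 higher, 3 lower and a median of 0.30. Pde1b, a calcium- and calmodulin-dependent enzyme, ran from -0.01 to 0.20 in sham and from 1.32 to 1.86 in PPE, a rise of 1.47 ± 0.11 (SE, adjusted p = 3.53e-06). Pde4a, specific for cyclic AMP, fell by 1.35 (SE 0.12, adjusted p = 7.36e-06) and did so on both of its probes. Pde3b, the relative of Pde3a that is best known from fat tissue, fell by 1.19 (SE 0.16, adjusted p = 0.000151). Beside it, 4 of 10 adipocyte markers were lower: Ucp1, Cidea, Lpl and Pparg. The others, Adipoq and Plin1 among them, did not pass, but all differed in the same direction, from -0.43 (Retn) to -0.90 (Plin1). The confidence intervals of Lep, Fabp4 and Plin1 did not reach 0, and the median of the 10 markers was -0.83. The list means of the groups overlapped through PPE 2 only (4.67, against 4.48 in sham 3, the lowest sham array). The part of adipocytes in the Pde3b signal was not tested. Pde6h, known as a subunit of the retinal cone enzyme, fell by 1.04 (SE 0.21, adjusted p = 0.00273) on 1 of its 2 tested probes, and did not pass with slide as a fixed block (adjusted p = 0.023).

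Of 17 kinase partners and targets, 5 were lower and 1 was higher, with a median of -0.20. Ppp1r12a, the targeting subunit of myosin phosphatase, ran from 2.39 to 3.35 in sham and from 0.48 to 1.26 in PPE, and fell by 2.10 (SE 0.23, adjusted p = 3.38e-05), on both of its probes. Hspb6, a small heat shock protein of smooth muscle that the kinase phosphorylates, ran from 1.08 to 2.29 in sham and from -0.88 to 0.39 in PPE and fell by 2.09 (SE 0.27, adjusted p = 0.000129). Mrvi1, the partner that couples the kinase to the calcium store, fell by 1.53 (SE 0.28, adjusted p = 0.00124), and Itpr1, the calcium release channel to which it binds, fell by 1.45 (SE 0.21, adjusted p = 0.00027). The sham and PPE values of these 4 genes did not overlap. Prkg2, the second cyclic GMP-dependent kinase, did not pass (-0.59 ± 0.32, SE, adjusted p = 0.192), but passed with slide as a fixed block (-0.77, adjusted p = 0.00481) and had the other sign with median centring (0.032). Kcnmb1, a subunit of the calcium-activated potassium channel, and Abcc4, an exporter of cyclic nucleotides, were named after their values were seen: they differed by -1.38 (adjusted p = 0.00867) and 0.85 (adjusted p = 0.000613). Kcnmb1 lost its call without sham 1, 2, 3 or 4 or PPE 1, 3, 4 or 5 (adjusted p up to 0.026), on the authors' processed ratios (adjusted p = 0.0151), with offset 10 (adjusted p = 0.0158) and with no filter (adjusted p = 0.0183), and Abcc4 lost its call in the red channel alone (0.59, adjusted p = 0.0164).

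Of 6 genes listed under nitric oxide removal 2 were lower, with a median of -0.72. The list also holds the superoxide dismutases Sod1 and Sod3, which spare nitric oxide, so its count and median give no direction for removal. Sod1, the superoxide dismutase that keeps superoxide from consuming nitric oxide, fell by 0.94 (SE 0.18, adjusted p = 0.00195). The other was Cyb5r3, a haem protein reductase, named after its value was seen, with a difference of -0.86 (adjusted p = 0.00159) on 1 of its 2 tested probes and overlapping groups. With slide as a fixed block neither passed (adjusted p = 0.012 and 0.017).

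**Figure D4:**
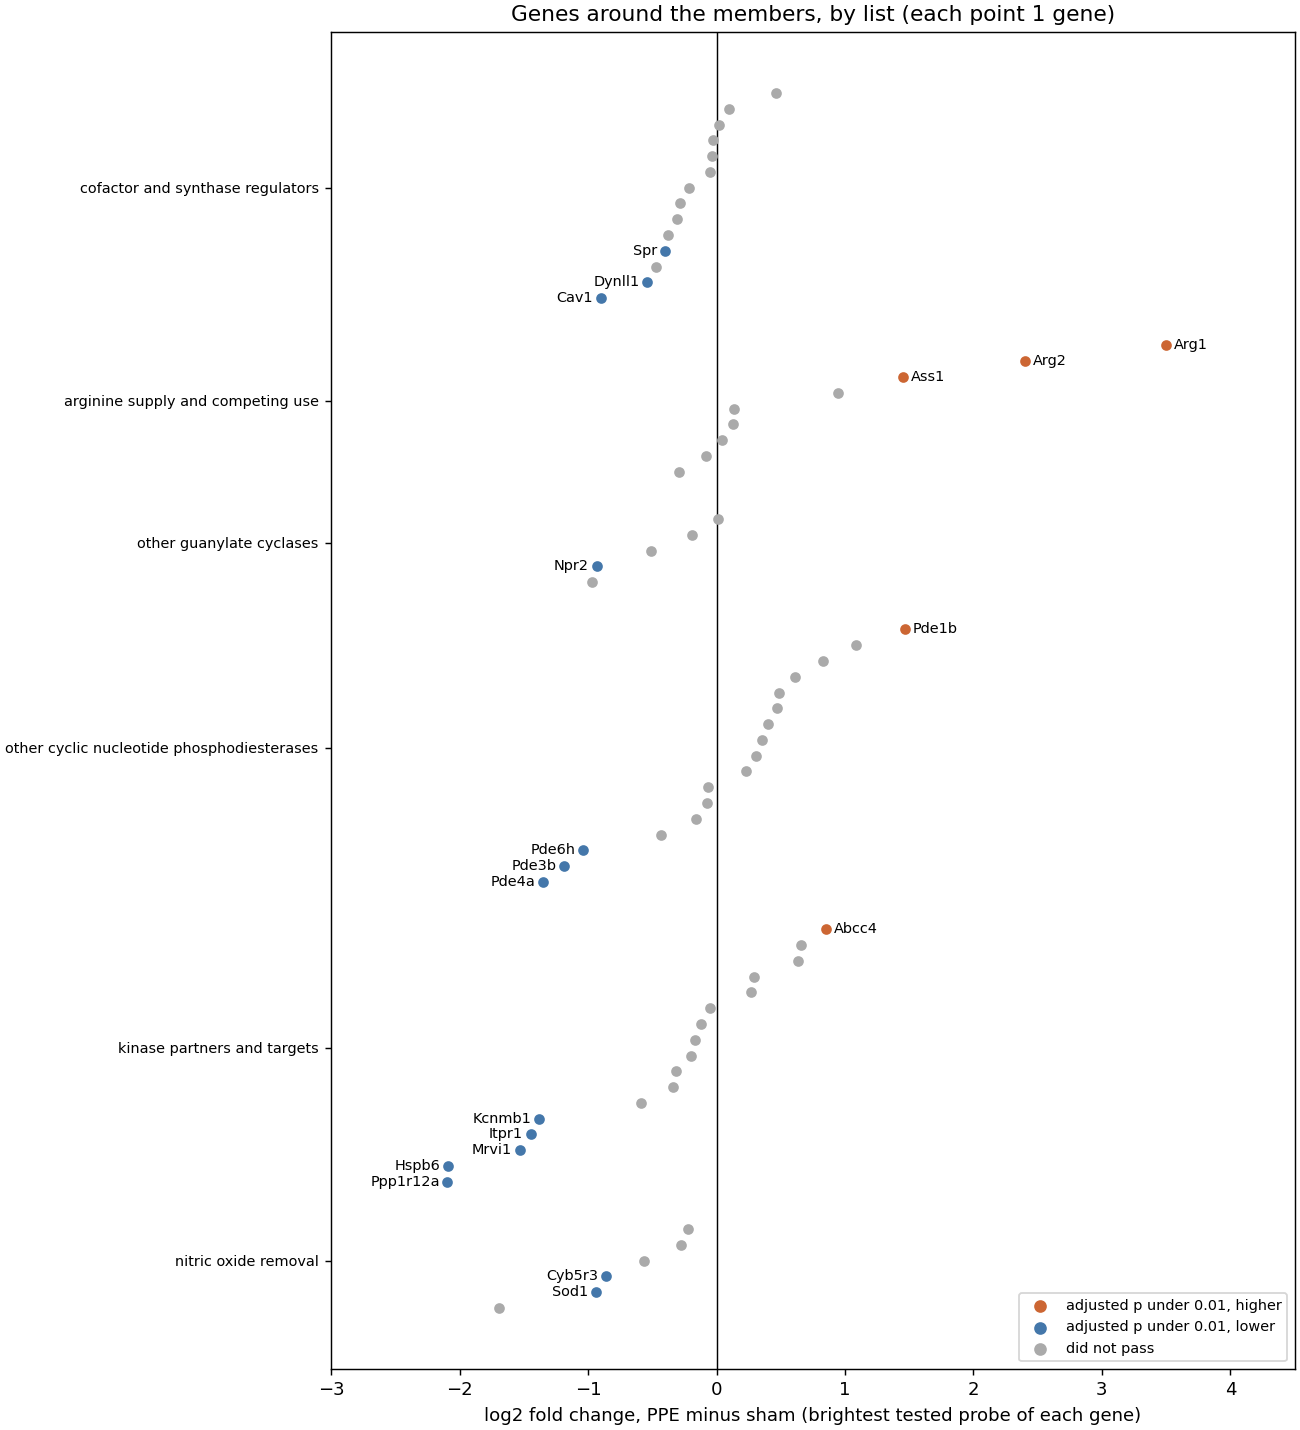
Difference PPE minus sham in log2 ratio for the 68 tested genes around the members, 1 point per gene, grouped by list and ordered by size, with the genes past an adjusted p of 0.01 coloured and named. Lower genes appear in every list but that of arginine use. Their number is highest among the kinase partners and targets (5 of 17), but the lists differ in length, and nitric oxide removal has 2 of 6. Arg1 and Arg2 lie furthest to the right, and Arg2 was well above background on PPE arrays only.

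Markers of several cell types moved with the groups. Of 12 smooth muscle markers 10 were lower, with a median difference of -1.80, and their mean log2 ratio ran from 3.06 to 4.29 in sham and from 1.60 to 2.65 in PPE arrays. Among the PPE arrays PPE 2 had the highest mean not only for smooth muscle but also for endothelium, skeletal muscle, nerve and adipocytes. It was the highest PPE array for Gucy1a3, Gucy1b3, Prkg1 and the brightest Pde3a probe, but not for Pde5a A_55_P2042778, where PPE 5 was. Among the sham arrays sham 3 had the lowest mean for smooth muscle, endothelium, adipocytes and macrophages. It was the lowest sham array for Gucy1a3, Prkg1, Pde5a A_55_P2042778 and the brighter Nos3 probe, but not for Gucy1b3 (sham 4) or the brightest Pde3a probe (sham 5). Of 10 macrophage markers 8 were higher, and of 9 tested neutrophil markers 8 were higher, with the means given beside Nos2. Among the neutrophil markers Mmp8 and Ngp were well above background on 5 of the 10 arrays and Cxcr2 and Ltf on 6. Such markers may have entered the test through PPE, where they were higher, so the count is no independent support. The adipocyte mean ran from 4.48 to 5.45 in sham and from 3.20 to 4.67 in PPE. Of the PPE arrays only PPE 2 reached the sham range. Skeletal muscle markers (1 of 9 lower) and nerve and Schwann cell markers (none passed, limma, 1 of 10 lower at an unadjusted p under 0.05) overlapped between the groups. The part of these cells in the changes of the pathway genes was not tested.

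**Figure D5:**
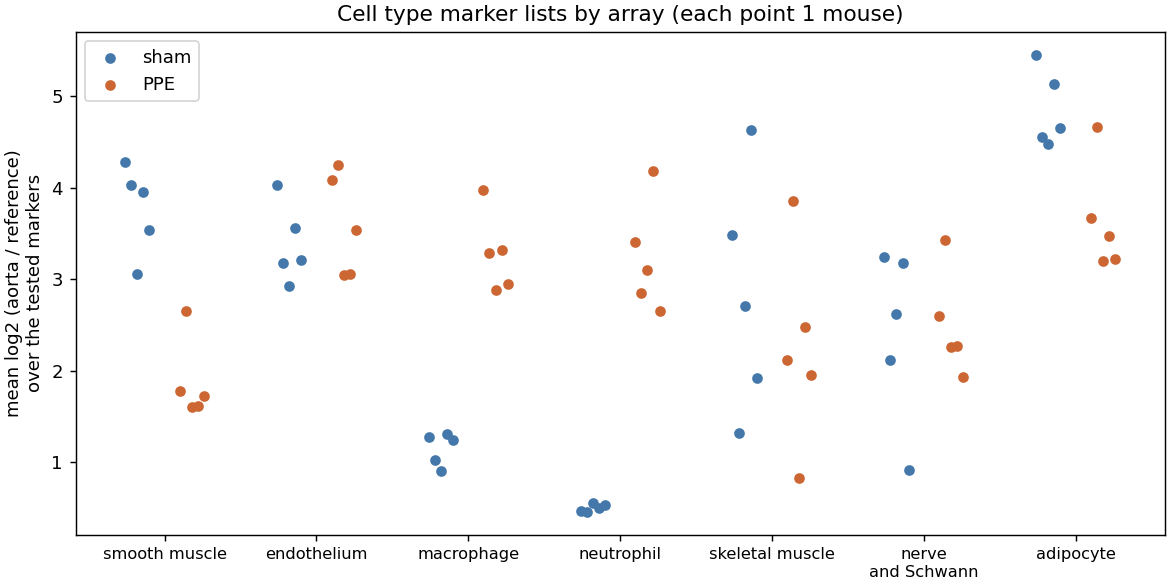
Mean log2 ratio of aorta to reference over the tested markers of each cell type, 1 point per mouse. The PPE points lie below the sham points for smooth muscle and above them for macrophages and neutrophils, and overlap them for endothelium, skeletal muscle, nerve and adipocytes.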

How the data were processed

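Each array carried Cy5-labelled aortic RNA (500 ng) and a Cy3-labelled universal mouse reference, without dye swap. Spots were quantified by the authors in Agilent Feature Extraction (version 10.7.3.1). Their deposited signals are linear intensity values, their deposited LogRatio is on a log10 scale (Cy5 over Cy3), and the authors' series matrix holds log2 ratios, which equalled log2 of the processed signals on 100% of spots (tolerance 1e-04). By the study's methods some arrays were excluded from its analysis, and which is not stated. Background was corrected here by normexp (offset 50, which understates changes of dim probes), followed by loess within arrays, in limma 3.58.1 (R 4.3.3). Control spots and 176 to 331 outlier spots per array were left out, and spots of a probe were averaged. Each channel alone was quantile normalized after the same background correction. Groups were compared with limma, unpaired, adjusted over all tested probes, and 3 pairs of genes by exact permutation. The p-values measure the spread between mice.

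The members and gene lists were chosen with earlier results of these data known. All member probes are named. In each further list, the 4 largest changes past the threshold with non-overlapping groups and detection on all 10 arrays, and genes sharing an enzyme or complex with a member, are named. Alternatives were median centring, Aquantile, the red channel, the authors' ratios, an offset of 10, other filters, 1 probe per gene name, SAM (written anew, 100 relabellings, false discovery rate 1%), blocks for slide, scan day and replicate number, and leaving out each array. The number of arrays limits the precision. Scripts were tested on simulated data.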

Additional observations from a re-analysis of the deposited data

Results flagged for a closer look

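In groups of 5 arrays, a value was singled out when its gap to the nearest other array, divided by the range of the group, was above 0.71, Dixon's critical value. This was so in 2 of 34 groups tested, and chance gives about 1 in 20. For Nos3 (A_55_P2034027) sham 3 stood at 3.07 and the nearest sham array at 3.62, a ratio of 0.855. For Gch1 (A_55_P2106175) sham 3 stood at -0.090 and the nearest sham array at -1.22, a ratio of 0.83.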

How the results depend on the processing

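The calls of Nos2, Ddah1 and Pde5a (A_55_P2042778) were lost with median centring only, among all alternatives in which they were tested, leave-one-out included. Median centring gave 0 higher and 0 lower member probes and 0 higher and 0 lower further genes (limma, 8 and 0 of the 68 at an unadjusted p under 0.05). It moved the median of all probes by 0.34 and the share of higher calls from 58.2% to 98.1%. It turned Nos1 (0.054), both Nos3 probes (0.060 and 0.078), Gucy1a3 (0.017), Spr (0.27), Prkg2 (0.032), Ddah2 (0.65) and Gchfr (0.57). The cause was not tested. Member probes called lower numbered 9 in the red channel alone, 4 with slide as a fixed block, 5 with scan day as a block, 4 with SAM, and 1 to 3 when single arrays were left out, where those called higher stayed at 4. A filter for signal on all 10 arrays left 2 higher member probes and 3 higher further genes, since fewer probes were tested. Higher further genes numbered 9 with slide as a random block, 13 with SAM and 4 to 9 in leave-one-out. Lower further genes ran from 11 to 15 in leave-one-out and reached 16 with scan day, a random slide block or SAM and 20 in the red channel. The calls among all 30836 tested probes moved as well. Higher and lower calls numbered 3935 and 2822 in the main fit, and 3525 and 3678 in the red channel. They were 3950 and 2911 with a fixed slide block, 4191 and 3319 with scan day, and 5043 and 3798 with a random slide block. SAM gave 6268 and 4268 of 30796 probes. Leave-one-out gave 3149 to 4592 higher and 2164 to 2962 lower. Correlations of same-numbered sham and PPE arrays ran from -0.293 to 0.523. They do not show a pairing of the mice by number, and so few correlations cannot exclude one. With the replicate block 8 further genes were higher, Spr lost its call (adjusted p = 0.0202) and the member counts stayed at 4 and 2. Nos1 was also positive in the red channel (0.17), on LogRatio and series matrix (0.30), with scan day as a block (0.028) and within slide 2 (0.038), and leave-one-out gave -0.21 to 0.052, positive without PPE 2. Gchfr was positive in the red channel (0.093), on LogRatio and series matrix (0.055), with offset 10 (0.035) and within slide 2 (0.22), and leave-one-out gave -0.14 to 0.068. Ddah2 was positive within slide 2 (0.053), and Gch1 (A_52_P298002) was -0.022 within slide 1. Leave-one-out gave 2.24 to 3.09 for Nos2 against Nos3, 0.06 to 0.57 for Gucy1a3 against Gucy1b3 and -0.82 to -0.41 for Pde5a against Pde3a. LogRatio and series matrix gave -0.18 for Gucy1a3 against Gucy1b3 and -1.68 for Pde5a against Pde3a, which offset 10 put at -1.12. Aquantile left all ratios as they were by construction.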
